A study of Mus musculus with 8 samples.

Results

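Cd3e, Cd3g, Cd4, Cd6, Cd8b1, Icos and Nkg7 are 7 genes that mark T cells and cytotoxic lymphocytes. They were chosen by name, with earlier results of these data known. Each was read through a probe set whose single annotated gene symbol is that of the gene. They are 7 of the 22180 genes named this way in the deposited array table. Each of the 7 had 1 such probe set. Their RNA was measured in mouse mPFC on 8 Affymetrix arrays, 2 in each of 4 groups. All mice carried a ribosomal tag that needs Cre, and CAV2-Cre, a virus that reaches cell bodies through their axons, had been injected in NAC or in VTA. The NAC pull-down and VTA pull-down groups held RNA recovered with GFP-trap from tagged ribosomes of cells projecting to that target, and the NAC input and VTA input groups held unpurified RNA of the same kind of sample. Strain, age, sex and the delay after injection are not stated in the labels used here. Nor do the labels say whether both arrays of a group are separate mice or pools, so the tests rest on a spread that may be technical. Whether a pull-down and an input of the same target come from one dissection is not stated either. No group without virus was analysed here.

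T cells recognise antigen through the T cell receptor, whose antigen-binding chains pass the signal through the CD3 chains. CD4 and CD8 are coreceptors that bind the class II and class I molecules presenting the antigen, and CD6 and ICOS tune the response. Cytotoxic T cells and natural killer cells kill target cells by releasing granules, of which NKG7 is a membrane protein. The healthy brain holds few of these cells, and they enter it in larger numbers during infection and inflammation.

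The tissue label was met by neuronal markers: all 6 measured genes of cortical glutamatergic neurons lay above the array median on every array, at a mean log2 level of 9.83 to 9.96. The array median is here the median over the named genes of an array, which ran from 5.86 to 5.98 on the log2 scale. Levels of the 7 markers ran from 1.83 below this median, for Cd3g on a VTA array, to 1.59 above it, for Cd3e on a NAC array. With NAC injection, Cd3e, Cd3g, Cd4, Cd6, Cd8b1 and Nkg7 lay above it on all 4 arrays and Icos on 2 of 4. With VTA injection Cd6 lay above it on all 4 arrays, Nkg7 on 1 array, and the other 5 genes on none. The filter on low values asked for 2 arrays above the median, and 6 of the 7 genes would not have passed it on the VTA arrays alone. A difference from a level under the median is not exact in size, and entry through the NAC arrays favours a lower VTA value among the genes tested. The target comparisons are therefore also given over all 22180 named genes, with no filter.

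Cd3e and Cd3g lie on chr9 with Cd3d between them, and both were lower in the VTA groups, so the DNA upstream of their annotated starts is shown (RefSeq, GRCm38.p6, minus strand, 5′ to 3′). The windows are chr9:45009664-45009861 for Cd3e and chr9:44980432-44980681 for Cd3g. RefSeq promoter entries were matched for 3 of the 7 genes. Capitals mark E-boxes (CANNTG, a motif that reads alike on both strands and is bound by basic helix-loop-helix factors).
Cd3e: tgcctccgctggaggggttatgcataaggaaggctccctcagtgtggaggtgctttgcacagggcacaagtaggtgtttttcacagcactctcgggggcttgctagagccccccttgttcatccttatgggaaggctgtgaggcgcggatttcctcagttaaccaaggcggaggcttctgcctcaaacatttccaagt
Cd3g: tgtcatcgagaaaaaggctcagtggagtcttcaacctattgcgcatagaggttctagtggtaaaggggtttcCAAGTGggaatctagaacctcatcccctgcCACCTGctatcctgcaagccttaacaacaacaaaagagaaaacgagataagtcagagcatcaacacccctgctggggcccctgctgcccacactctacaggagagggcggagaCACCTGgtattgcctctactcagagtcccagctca
The Cd3g window held 3 E-boxes and the Cd3e window 0. At least 1 E-box occurred in 66.2% of 32851 RefSeq promoter windows cut to the 250 bases of the Cd3g window, and in 58.7% of those cut to the 198 bases of the Cd3e window. The TATA box (TATAAA, both strands) was found in neither, against 12.4% and 9.08% of the windows of these lengths. TGTGGT, a RUNX core, and GGAAGT, a form of the ETS motif, were searched on both strands and found in neither. They occurred in 14% and 19.7% of the windows of the Cd3g length, and in 11.4% and 14.4% of those of the Cd3e length. Shorter forms of the ETS motif were not searched. The windows cut to 198 bases kept the 5′ part of 250 upstream bases, so they stop short of the start. The Cd3e window ends at the outermost annotated start of its gene. The shares given for its length are therefore not matched to it in position.

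The comparison of the inputs asked whether the tissue itself differed between the targets, before any pull-down. Cd3e, Cd3g, Cd8b1, Nkg7 and Cd4 were lower in the VTA inputs than in the NAC inputs, by 1.77-fold to 3.51-fold, while Cd6 and Icos did not pass the test. These are 5 of the 7 genes, where 1.38% of the 11712 genes tested were called lower, but all 5 had entered the test through the NAC arrays, so this count is a description only. With no filter 3 of the 7 were called lower, Cd3e, Cd4 and Cd8b1, where 0.613% of the 22180 named genes were. None was higher under the filter, where 0.12% of the genes tested were. The median of the 7 differences was -0.89 on the log2 scale, against 0.03 over all named genes. In bulk tissue, fewer cells of a type and less RNA per cell cannot be told apart.

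Cd3e codes for the CD3 epsilon chain of the receptor complex. Its log2 level was 7.55 and 7.48 in the NAC inputs, 6.70 and 6.39 in the NAC pull-downs, 5.62 and 5.78 in the VTA inputs, and 5.17 and 5.86 in the VTA pull-downs. Every NAC array was above every VTA array, and the NAC inputs stood above all other arrays. The VTA inputs were lower than the NAC inputs by 3.51-fold (log2 difference -1.81, SE 0.19, n = 2 and 2, limma adjusted p = 0.000574 with Benjamini-Hochberg).

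Cd3g codes for the CD3 gamma chain. Its level was 7.03 and 5.97 in the NAC inputs, 6.55 and 6.13 in the NAC pull-downs, 4.83 and 4.56 in the VTA inputs, and 4.06 and 4.59 in the VTA pull-downs. The 4 NAC arrays were all above the 4 VTA arrays, but the NAC inputs differed from each other by more than did those of any other of these genes. The difference between the inputs was -1.80 (SE 0.30, limma adjusted p = 0.0117).

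Of the coreceptors, Cd4 marks helper T cells and Cd8b1 codes for the beta chain of CD8 on cytotoxic T cells. Cd4 was at 6.56 and 6.77 in the NAC inputs, 6.04 and 6.14 in the NAC pull-downs, 5.89 and 5.80 in the VTA inputs, and 5.63 and 5.40 in the VTA pull-downs. Its groups followed one another in that order with no overlap between any of them. Cd8b1 was at 6.28 and 6.38 in the NAC inputs, 6.02 and 6.11 in the NAC pull-downs, 5.13 and 5.13 in the VTA inputs, and 5.65 and 5.45 in the VTA pull-downs. Its VTA inputs were the lowest arrays and lay under the VTA pull-downs. The input difference was -0.82 (SE 0.11, limma adjusted p = 0.0035) for Cd4 and -1.20 (SE 0.10, limma adjusted p = 9.77e-05) for Cd8b1.

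Nkg7, the gene of the cytotoxic granule protein, was at 6.35 and 6.55 in the NAC inputs, 6.32 and 6.54 in the NAC pull-downs, 5.60 and 5.51 in the VTA inputs, and 6.18 and 5.57 in the VTA pull-downs. The NAC arrays were all higher, and the VTA pull-downs were split, with 1 array close to the NAC arrays and 1 at the level of the VTA inputs. Its input difference was -0.89 (SE 0.18, limma adjusted p = 0.0339).

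Cd6, a receptor on T cells that binds the adhesion molecule ALCAM, and Icos, a costimulatory receptor of activated T cells, did not pass between the inputs. Cd6 was at 6.09 and 6.20 in the NAC inputs, 6.24 and 6.37 in the NAC pull-downs, 6.21 and 6.001 in the VTA inputs, and 6.10 and 6.13 in the VTA pull-downs. Its inputs overlapped between the targets, with a difference of -0.04 and a 95% interval of -0.27 to 0.20 (limma adjusted p = 0.919). Icos was at 5.96 and 5.91 in the NAC inputs, 6.04 and 5.75 in the NAC pull-downs, 5.64 and 5.70 in the VTA inputs, and 5.72 and 5.59 in the VTA pull-downs. All its NAC arrays were above all its VTA arrays, by a small margin, and the input difference of -0.27 had a 95% interval of -0.52 to -0.02 and did not pass (limma adjusted p = 0.43).

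**Figure D1:**
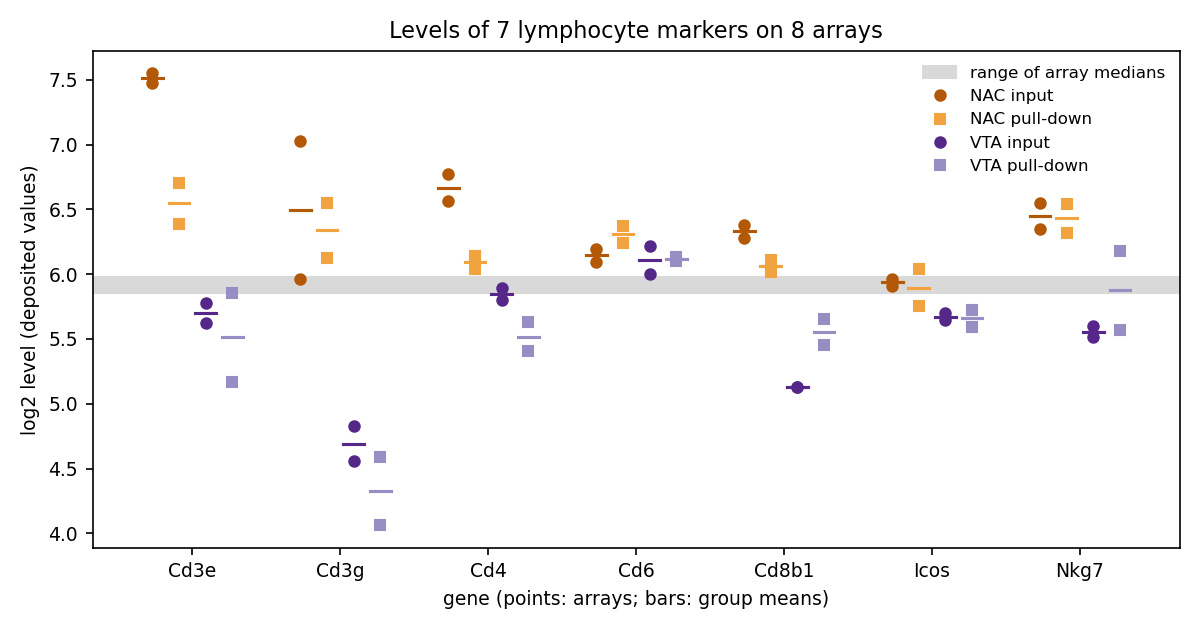
Log2 level of each of the 7 genes on the 8 arrays. Points are arrays, short bars are group means of 2 arrays, and the grey band is the range of the array medians (5.86 to 5.98). For 6 of the 7 genes every NAC array lies above every VTA array, and for Cd6 the groups overlap.

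All 4 NAC arrays were above all 4 VTA arrays for 6 of the 7 genes, where 2.54% of all 22180 named genes had this pattern. The 7 genes were chosen with earlier results of these data known, so this count is a description only. The order of the group means from high to low was NAC input, NAC pull-down, VTA input, VTA pull-down for Cd3e, Cd3g, Cd4 and Icos. For Cd8b1 and Nkg7 the VTA pull-down stood above the VTA input. Of the neighbours in these orders that were compared, the NAC input and NAC pull-down differed by the test for Cd3e and Cd4, and the VTA pull-down and VTA input for Cd8b1. The NAC pull-down and the VTA group next to it in the order differ in both target and fraction, and only pull-down against pull-down was tested.

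The input calls of Cd3e and Cd8b1 passed without any 1 of the 8 arrays, with a highest limma adjusted p of 0.0184 and 0.00401, but the count of 5 did not hold. It was 3 without the first NAC input (Nkg7 at adjusted p = 0.125, Cd3g at adjusted p = 0.0543), 3 without the second NAC input (Nkg7 at adjusted p = 0.38, Cd4 at adjusted p = 0.0651), 3 without the first VTA input (Nkg7 at adjusted p = 0.237, Cd3g at adjusted p = 0.102) and 2 without the second VTA input (Nkg7 at adjusted p = 0.316, Cd4 at adjusted p = 0.0722, Cd3g at adjusted p = 0.187), all in limma, with the same sign for all 5 genes each time.

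The comparison of the pull-downs asked the same of RNA bound to tagged ribosomes. It uses other arrays than the inputs, but it is not shown to be independent of them, since both may come from the same tissue. Cd3g, Cd3e, Cd4 and Cd8b1 were lower in the VTA pull-downs than in the NAC pull-downs, which is 4 of 7 genes, where 2.05% of the genes tested were called lower. These 4 too had entered through the NAC arrays, and with no filter 1 of the 7, Cd3g (limma adjusted p = 0.0486), was called lower, where 0.451% of the named genes were. None was higher under the filter, where 0.418% were. Cd3g differed by 4.03-fold (log2 -2.01, SE 0.30, limma adjusted p = 0.00579), Cd3e by 2.05-fold (log2 -1.03, SE 0.19, adjusted p = 0.02), Cd4 by 1.49-fold (log2 -0.57, SE 0.11, adjusted p = 0.0273) and Cd8b1 by 1.43-fold (log2 -0.51, SE 0.10, adjusted p = 0.0275). Nkg7 at -0.56 (limma adjusted p = 0.151), Icos at -0.24 (adjusted p = 0.338) and Cd6 at -0.19 (adjusted p = 0.414) did not pass. The median of the 7 was -0.56, against -0.02 over all named genes.

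Cd3g was called without any 1 array (highest limma adjusted p = 0.0382), and the number called followed the array left out. It was 1 without the first NAC pull-down, 2 without the second NAC pull-down, 5 without the first VTA pull-down, where Nkg7 at -0.86 also passed, 2 without the second VTA pull-down, 1 without the first VTA input, 1 without the second VTA input and 3 without either NAC input.

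**Figure D2:**
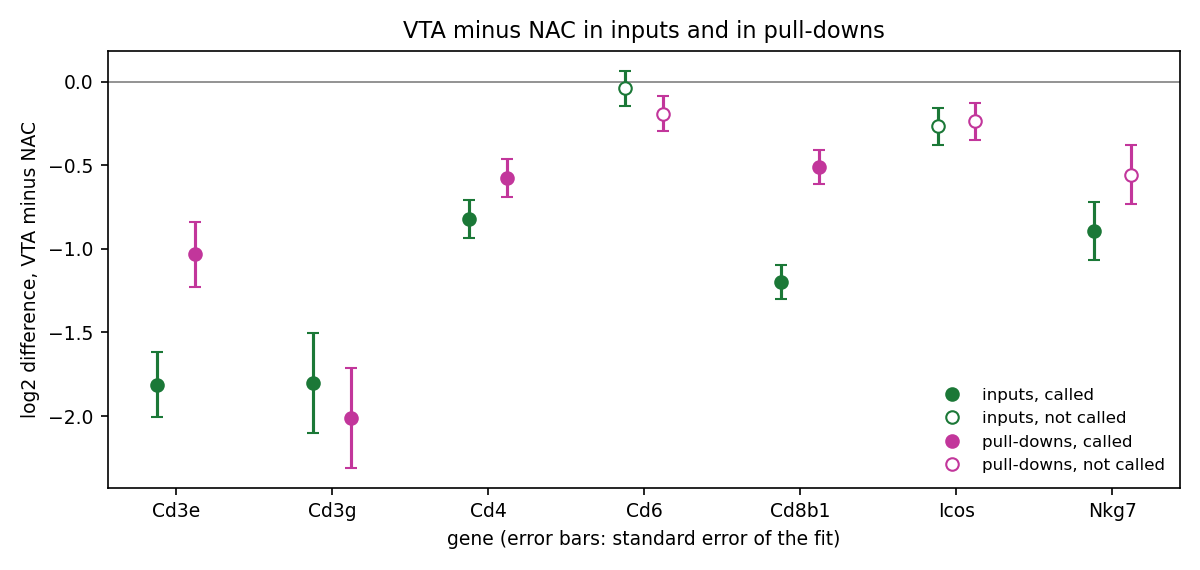
Log2 difference VTA minus NAC for each of the 7 genes, in the inputs (green) and in the pull-downs (magenta). Error bars are standard errors of the fit, and filled points passed an adjusted p of 0.05. All 14 differences lie below 0, with 5 called in the inputs and 4 in the pull-downs.

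The pull-down was then compared with its input within each target, which asked whether RNA of these markers was carried along with or depleted from the tagged ribosomes. In NAC samples Cd3e fell by 0.97 on the log2 scale (SE 0.19, n = 2 and 2, limma adjusted p = 0.0153) and Cd4 fell by 0.58 (SE 0.11, adjusted p = 0.0149). None of the 7 was higher, where 4.34% of the genes tested were. These 2 of 7 genes compare with 8.01% of the genes tested that were called lower. Cd8b1 at -0.27 (limma adjusted p = 0.109), Cd3g at -0.16, Icos at -0.04, Nkg7 at -0.02 and Cd6 at 0.16 did not pass. For Nkg7 the values of pull-down and input were nearly the same on the NAC arrays, and the 95% interval of its difference ran from -0.41 to 0.37. Both calls were lost without the second NAC pull-down (Cd3e at limma adjusted p = 0.0973, Cd4 at 0.0613), without the first NAC input (0.102 and 0.0545) or without the second NAC input (0.0816 and 0.105), and with every named gene tested (0.0889 and 0.0888). Genes of other cell types were also lower in this comparison. They were 9 of 11 microglial genes (7 with each array centred), 2 of 3 astrocyte genes and 2 of 3 interneuron genes (1 when centred). The counts were 2 of 7 for pan-leukocyte, 1 of 2 for oligodendrocyte and 0 of 3 for endothelial genes. Of the trafficking genes, a list that is not of 1 cell type, 5 of 11 were lower (4 when centred). The part of all these genes in the results for Cd3e and Cd4 was not tested. Of the 6 cortical glutamatergic genes 1 was higher and none lower. Their median was -0.03, against -0.06 over all genes tested.

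In VTA samples, Cd8b1 was higher in the pull-downs by 1.34-fold (log2 difference 0.42, SE 0.10, n = 2 and 2, limma adjusted p = 0.0138), where 5.44% of the genes tested were called higher. Its levels there were all under the array medians, so the size is not exact. None of the 7 was lower by the test, where 25.9% of the genes tested were called lower, among them 6 of 11 microglial and 3 of 3 astrocyte genes. Cd4 at -0.33 was next to the threshold (limma adjusted p = 0.0506) and Nkg7 was at 0.32, Cd3g at -0.37, Cd3e at -0.19, Icos at -0.01 and Cd6 at 0.01. The Cd8b1 call was lost without the first VTA pull-down (limma adjusted p = 0.0761), the first VTA input (0.0871) or the second VTA input (0.0606), and with every named gene tested (0.0554). Without the second VTA pull-down 3 genes were called, Cd8b1, Nkg7 at 0.63 and Cd3e at -0.54.

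Averaged over both targets, Cd3e fell by 0.58 (SE 0.14, n = 4 and 4, limma adjusted p = 0.00866) and Cd4 fell by 0.45 (SE 0.08, adjusted p = 0.00252) in the pull-downs. These 2 of 7 are near the background, since 32% of the genes tested were called lower, with 10 of 11 microglial genes (9 when centred) and 3 of 3 astrocyte genes among them. The median of the 7 was -0.03, against -0.11 over all genes tested. None was higher, where 9.6% of the genes tested were. Of the 6 cortical glutamatergic genes 1 was higher and 2 were lower over both targets (none lower when centred), with a median of -0.08. With VTA 1 was higher and 1 lower (none lower when centred), with a median of -0.14, against -0.15 over all genes tested.

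The difference of enrichment, which is pull-down minus input with VTA less the same with NAC, was largest for Cd3e at 0.78 (SE 0.27) and Cd8b1 at 0.69 (SE 0.14). For Cd8b1 the sign of the pull-down difference was opposite in the targets. In limma (Benjamini-Hochberg) 0 of the 7 passed, with adjusted p = 0.215 for Cd8b1 and 0.329 for Cd3e, although 2 of the 7, these same genes, had an unadjusted p under 0.05. Of all genes tested, 0.0683% passed, so this test called few genes of any kind.

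**Figure D3:**
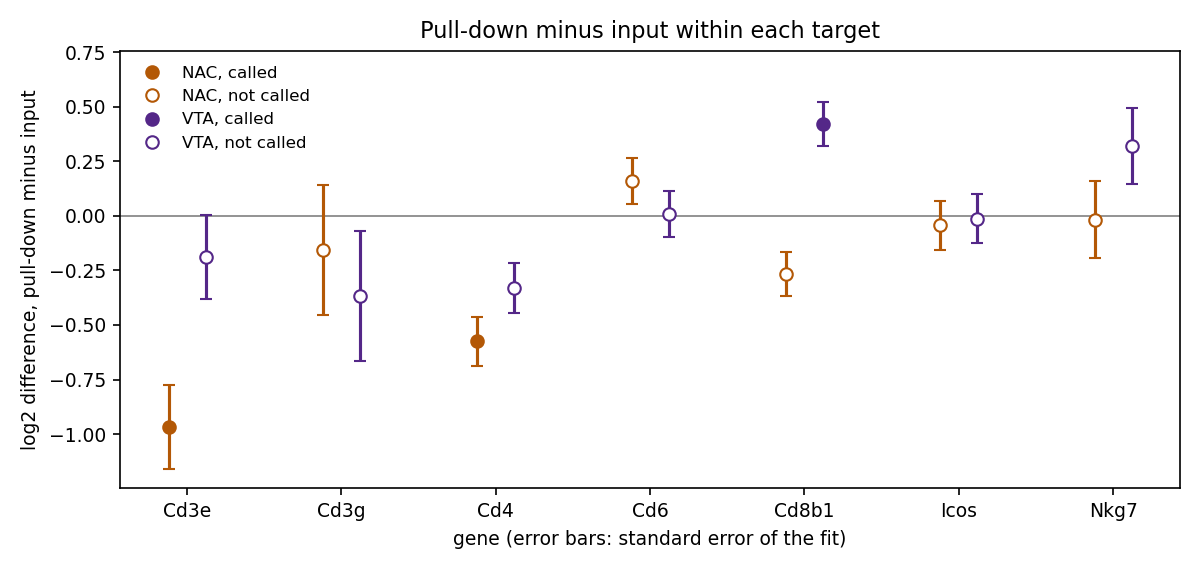
Log2 difference pull-down minus input for each of the 7 genes, with NAC (orange) and with VTA (violet) injection. Error bars are standard errors of the fit and filled points passed an adjusted p of 0.05. Cd3e and Cd4 are lower in the NAC pull-downs and Cd8b1 is higher in the VTA pull-downs.

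Of the other T cell genes, few reached the array median. Of 7 further receptor chains and partners, 2 were measured and none tested. All 10 measured coreceptors and costimulatory receptors, among them Cd8a, Cd2, Cd5 and Cd28, lay under the median on all 8 arrays and were not tested. Of 10 measured genes of proximal receptor signalling 3 were tested. Of these, 2 of the 3, Lat and Lcp2, were lower in the VTA inputs (1 of 3 with quantile normalization). Lat had a mean of 6.42 in the NAC inputs and 5.76 in the VTA inputs. Lcp2, the adaptor SLP-76, was at -0.56 (SE 0.11, limma adjusted p = 0.0288). None of the 3 passed between the pull-downs. Of 17 cytotoxic and natural killer genes 3 were tested, and 1, Cst7, which codes for a cystatin of cytotoxic cells that activated microglia also express, was lower in the VTA inputs at -1.59 and in the VTA pull-downs at -1.56 (limma adjusted p = 0.000296 and 0.000364). Cst7 was above the array median on NAC arrays only, so it entered the test through the group where it is high. With no filter it was also called in both (limma adjusted p = 0.00504 and 0.00608). Prf1, the gene of perforin, was at 0.06 in the inputs and 0.22 in the pull-downs and did not pass. The granule genes Gzma, Gzmb and Gzmk, with Fasl and the cytokine gene Ifng, stayed below the filter and were not tested. Gzma had a mean of 4.47 in the NAC inputs and 3.29 in the VTA inputs, and Gzmb 4.71 and 4.18. For these, every NAC array was above every VTA array, as for 2.54% of all 22180 named genes. For Gzmk, Fasl and Ifng the NAC and VTA arrays overlapped.

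Several of the 7 genes sit beside another T cell gene in the RefSeq table of GRCm38.p6. Cd3d lies between Cd3g and Cd3e, Cd8a beside Cd8b1, Cd5 beside Cd6, and Ctla4 and Cd28 before Icos. Their levels, all under the array medians and not tested, are given as a description. Cd8a had a mean of 5.79 in the NAC inputs and 4.87 in the VTA inputs, and all its NAC arrays were above all its VTA arrays. Cd3d had 5.39 and 4.72 in the inputs, but 4.80 in the NAC pull-downs and 5.12 in the VTA pull-downs, an order opposite to that of Cd3e and Cd3g. Cd28 was at 4.69 and 4.74 in the inputs. Cd5 had 5.89 in the NAC inputs and 5.58 in the VTA inputs, and its NAC arrays too were all above its VTA arrays. That pattern was seen in 2.54% of all 22180 named genes. Ctla4 had 4.29 and 3.95 in the inputs, but its NAC and VTA arrays overlapped.

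Some genes of the molecules that these receptors bind were lower in the VTA groups and others were not called. The median input difference over the 11 measured was -0.49. Of 11 measured ligands and partners 7 were tested, and 5 were lower in the VTA inputs (6 with each array centred on its median) and 5 in the VTA pull-downs. In the inputs H2-Ab1 and H2-Aa, class II chains bound by CD4, were at -3.25 (SE 0.11) and -2.89 (SE 0.27), and H2-K1, a class I chain bound by CD8, was at -1.85 (SE 0.11). H2-Ab1 went from 10.29 ± 0.15 in the NAC inputs to 7.04 ± 0.04 in the VTA inputs (log2 mean ± SD, n = 2). Alcam, the ligand of CD6, and Icosl, the ligand of ICOS, did not pass between the targets in inputs (0.22 and -0.49) or pull-downs (0.29 and -0.32), but with each array centred Icosl was called lower in the inputs (limma adjusted p = 0.0387). Of 11 tested trafficking genes 6 were lower in the VTA inputs and 4 lower and 1 higher in the VTA pull-downs, among them the T cell-attracting chemokines Ccl5 at -3.08, Cxcl9 at -2.52 and Cxcl10 at -2.32 in the inputs. Of the tested genes, 5 of 11 trafficking genes, with Cxcl9 and Cxcl10 among them, and 1 of 7 ligands, H2-Aa, would not have passed the filter on the VTA arrays alone. With no filter Cxcl9, Cxcl10 and H2-Aa were called lower in inputs and pull-downs (highest limma adjusted p = 0.00335).

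Some markers of other cell types were also lower with VTA, while others were not called or were higher. Their part in the results was not tested. Of 7 tested pan-leukocyte genes 5 were lower in the VTA inputs and 5 in the VTA pull-downs (4 in each with quantile normalization), with Cd52 at -1.80, Ptprc at -0.97 and Rac2 at -0.96 in the inputs. Cd52, Ptprc and Vav1, 3 of these 7, would not have passed the filter on the VTA arrays alone, and with no filter Cd52 was called in the inputs (limma adjusted p = 0.000408) and Ptprc was not (adjusted p = 0.125). The mean log2 level of the 10 measured ones was 6.72 to 6.82 in the NAC inputs, 6.42 to 6.52 in the NAC pull-downs, 6.10 to 6.14 in the VTA inputs and 5.90 to 5.92 in the VTA pull-downs. Of 11 microglial genes 5 were lower and 1, Fcrls at 0.71, was higher in the VTA inputs, with a list mean of 8.29 to 8.31 in the NAC inputs and 7.89 in both VTA inputs, and of 7.76 to 7.77 in the NAC and 7.45 to 7.50 in the VTA pull-downs. In the pull-downs 4 microglial genes were lower and Fcrls was higher with VTA. Of 7 measured B and plasma cell genes only Jchain, of antibody-secreting cells, was tested, having entered through the NAC arrays alone. It was lower in the VTA inputs at -2.85 and in the VTA pull-downs at -2.23, also with no filter (limma adjusted p = 0.000298 and 0.0011). The list mean, which includes Jchain, was 5.19 to 5.28 on the NAC arrays and 4.49 to 4.88 on the VTA arrays. The median difference over the 7 measured genes was smaller, at -0.33 in the inputs and -0.37 in the pull-downs. Pax5 alone of the 7 had a higher mean in the VTA pull-downs (5.55) than in the NAC pull-downs (5.27). The defining B cell genes Ms4a1, Cd79a and Cd79b lay under the array median on every array. All 5 measured genes of platelets and granulocytes, Pf4, Ppbp, S100a8, S100a9 and Ly6g, were under the median on every array, and no listed red cell gene was measured. Their mean was 4.16 to 4.35 with NAC and 4.19 to 4.45 with VTA. Of 3 astrocyte genes Gfap alone was lower with VTA, at -0.84 in the inputs and -1.22 in the pull-downs. None of the 6 glutamatergic, 3 interneuron, 2 oligodendrocyte and 3 endothelial genes was called in the inputs, and in the pull-downs 1, Fezf2 of layer 5 neurons, was higher with VTA at 0.51.

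**Figure D4:**
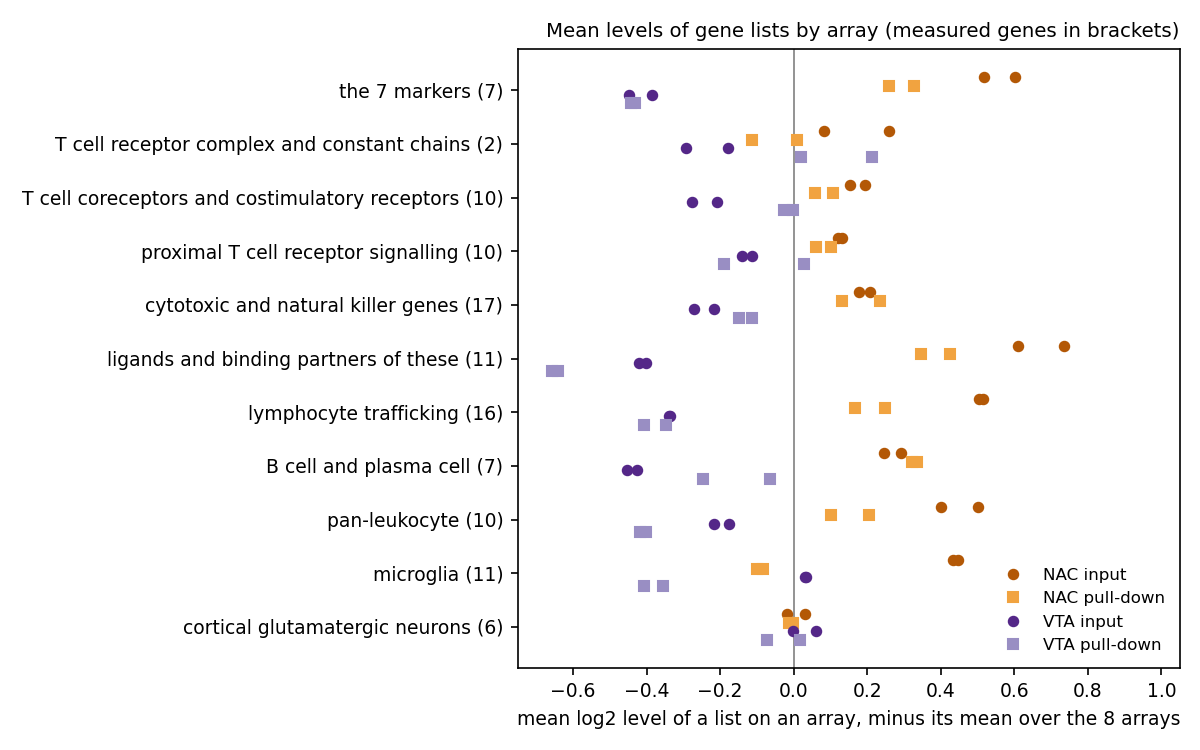
Mean log2 level of each gene list drawn, on each array, minus the mean of that list over the 8 arrays. The number of measured genes is in brackets. Not drawn are the lists of red cells, platelets and granulocytes, interneurons, astrocytes, oligodendrocytes and endothelial cells. In each list not drawn, the NAC and VTA arrays overlap. All lists drawn but those of the receptor complex, microglia and glutamatergic neurons lie higher on all 4 NAC arrays than on all 4 VTA arrays. The margin is small for the coreceptors and proximal signalling. The mean of the B and plasma cell list includes Jchain, its only tested gene. The list of glutamatergic neurons stays between 9.83 and 9.96 before this centring.

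The pattern over the 8 arrays was shared by most of the 7 genes. Pearson's r of each gene with the mean of the other 6 over 8 arrays was 0.90 for Cd3e and Cd8b1, 0.89 for Cd3g, 0.86 for Cd4, 0.84 for Icos, 0.78 for Nkg7 and 0.38 for Cd6. The arrays fall into 4 groups, so these values describe the group pattern. The 10 tested genes most like the mean of the 7, by the same measure over the 8 arrays, had r from 0.989 to 0.995. They were Slamf7, which codes for a receptor of cytotoxic lymphocytes and plasma cells, 3 immunoglobulin light chain segments with Igkj1 and Igkv9-120 among them, the antibody joining chain gene Jchain, the T cell receptor alpha segment Trav9d-3, the serpin gene Serpina3n, H2-Ab1, and the interferon-induced genes Igtp and Rtp4. Slamf7 had a mean level of 6.25 in the NAC inputs, 5.92 in the NAC pull-downs, 4.89 in the VTA inputs and 4.96 in the VTA pull-downs.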

How the data were processed

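The authors deposited log2 values for 41345 probe sets, made with Transcriptome Analysis Console per the submitters' processing notes; neither its version nor its background and normalization settings were found in the labels. Values were used as deposited. A single gene symbol was annotated for 23521 probe sets, naming 22180 genes; where several shared a gene, that with the highest mean was kept. Genes above the array median on at least 2 of 8 arrays were tested (11712). With limma 3.58.1 (R 4.3.3; lmFit, eBayes), a model of 4 group means used all 8 arrays, with two-sided tests, Benjamini-Hochberg adjustment over the 11712 genes and a threshold of 0.05; it was tested on simulated data. The number of arrays limits the precision. The members and lists were chosen with earlier results of these data known. Named besides the 7 genes are, per list and comparison, at most 3 called genes with the largest differences, and the 10 genes most like the 7. Others were singled out after their values were seen: chromosomal neighbours, ligands, variable segments and genes below the filter. Alternatives changed the scaling, filter, probe set rule, variance trend, block and arrays used.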

Additional observations from a re-analysis of the deposited data

How the results depend on the processing

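Of the 14 differences called among the 7 genes, none changed sign in 210 refits under other settings, 166 kept the call and 44 lost it. Of the 28 uncalled ones, over 418 refits, 9 gained a call and 25 changed sign. Most of these refits could not change a sign. The filter, variance trend and block leave the difference of a gene as it was, and so does the probe set rule for a gene with 1 probe set. Leaving out an array outside the groups compared does not move it either. Only the scaling and the loss of an array of those groups could change a sign. The number of the 7 genes called moved by over 1.5 times as follows. With quantile normalization, 2 were called with VTA, pull-down against input. With no filter on low values, 0 were called in pull-down against input with NAC and 0 with VTA, 1 between the pull-downs and 3 between the inputs. With the filter on the mean over arrays, 4 of the 7 were tested, and 2 were called between the pull-downs and 3 between the inputs. Leaving out 1 array in turn gave 0 to 2 in pull-down against input with NAC, 0 to 3 with VTA, 1 to 5 between the pull-downs and 2 to 5 between the inputs. Icos was not tested without the first NAC pull-down or the first NAC input. With fewer genes or arrays in the fit, both the spread and the adjustment change; which of them moved a call was not tested. Changes of sign all concerned uncalled values. With each array centred, Icos was at 0.032 in pull-down against input over both targets and at 0.072 with VTA, and Nkg7 at 0.016 with NAC. With quantile normalization, Nkg7 was at 0.030 with NAC. Leaving out 1 array gave ranges over both targets of -0.0018 to 0.30 for Nkg7, -0.53 to 0.0029 for Cd3g and -0.059 to 0.045 for Icos. With NAC they were -0.13 to 0.10 for Nkg7, -0.69 to 0.37 for Cd3g and -0.069 to 0.10 for Icos, and with VTA -0.54 to 0.16 for Cd3e, -0.10 to 0.12 for Cd6 and -0.076 to 0.052 for Icos. The range was -0.15 to 0.068 for Cd6 between the inputs, and -0.74 to 0.32 for Cd3g and -0.11 to 0.094 for Icos in the difference of enrichment. Samples of a target share a number in the labels. Deviations of same-numbered pull-down and input arrays correlated at 0.30 with NAC and -0.02 with VTA over the genes tested, so the numbers were not taken to pair them. With the replicate number as a block, 4 of the 7 were called between the inputs (Nkg7 at limma adjusted p = 0.0552) and 4 between the pull-downs. With target and number together as the block, 2 passed with VTA, pull-down against input, Cd8b1 and Cd4 (limma adjusted p = 0.0312). Over all genes tested, counts also moved: 289 genes called between the pull-downs became 113 with no filter and 532 with an intensity trend, 1446 called with NAC became 105 with no filter, 3671 with VTA became 1907, and 8 in the difference of enrichment became 2 with quantile normalization, 1 with no filter, 30 with the trend and 1 with either block. Without 1 array the counts ran down to 145 with NAC, 415 with VTA, 3076 over both targets, 149 between the pull-downs, 99 between the inputs and 1 in the difference of enrichment. Centring each array moved the balance of directions: over both targets 1124 higher and 3742 lower became 1523 and 2561, with NAC 508 and 938 became 561 and 633, with VTA 637 and 3034 became 861 and 1724, and between the pull-downs 49 and 240 became 85 and 201.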

Other observations

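The T cell receptor is assembled from variable segments, and these gave values that no list held. Of 8 variable segments with a probe set of their own symbol, a set chosen after the values were seen, 2 passed the filter. Trav9d-3, an alpha chain segment, was at 8.19 and 7.96 in the NAC inputs, 7.88 and 7.62 in the NAC pull-downs, 6.17 and 6.05 in the VTA inputs, and 5.89 and 5.87 in the VTA pull-downs. Each of its NAC arrays was higher than each of its VTA arrays, by a log2 difference of group means of -1.97 in the inputs. No other of the 8 segments had all NAC arrays above all VTA arrays, a pattern of 2.54% of all 22180 named genes. Trav12-2 was at 6.60, 6.29, 6.19 and 6.16 as means of the NAC inputs, NAC pull-downs, VTA inputs and VTA pull-downs. The beta chain segment Trbv13-2 and the gamma chain segments Trgv5 and Trgv6 stayed below the filter. So did Trav3-4, which was higher with VTA, at 0.47 in the inputs and 0.16 in the pull-downs. The pull-down differences of Trgv5 (0.22) and Trgv6 (0.02) were positive too, and the remaining segments were lower with VTA in both.

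Lag3, which lies beside Cd4 and codes for an inhibitory receptor that binds class II molecules, lay above the array median on all 8 arrays. Its level was 7.49 and 7.63 in the NAC inputs, 7.23 and 7.17 in the NAC pull-downs, 6.56 and 6.44 in the VTA inputs, and 6.10 and 6.20 in the VTA pull-downs. Its groups followed the order of Cd4 and did not overlap.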
